A study of Mus musculus with 6 samples.

Results

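The voltage-gated sodium channel genes described here are 8 subunit genes, 5 alpha genes (Scn1a, Scn2a, Scn3a, Scn7a and Scn8a) and 3 beta genes (Scn2b, Scn3b and Scn4b), out of 55487 genes in a table of RNA-seq read counts from mouse aorta. They were taken by gene symbol, each symbol had 1 identifier, and 6 of the 8 passed the filter on low counts that left 16139 genes for testing. The list was selected on measured differences between knockout and control in these same libraries, so the differences of these 8 genes between the groups are given as descriptions. The control group had 3 libraries from mice labelled LoxP, described as carrying a floxed Ogt gene, and the knockout group had 3 libraries from mice with Ogt deleted specifically in smooth muscle cells. Ogt encodes the enzyme that attaches N-acetylglucosamine to proteins of the nucleus and cytoplasm. Sample titles of both groups carry the prefix SM22, another name of the smooth muscle protein transgelin, and whether the control mice carry a Cre transgene is not given in the sources used here. Strain, sex, age, the site of the aorta sampled and the number of mice per library are likewise not given in the sources used here, so p-values reflect only how far these libraries vary, which may be partly technical. Where 3 values are given for a group, they are in the order of its replicates 1 to 3.

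Voltage-gated sodium channels carry the fast inward sodium current that starts action potentials in neurons and in cardiac and skeletal muscle. A large alpha subunit forms the pore and senses voltage, and small beta subunits with an immunoglobulin-like outer domain tune gating, bring the channel to the membrane and act in cell adhesion. Contraction of arterial smooth muscle relies mainly on calcium channels, although sodium currents have been recorded in arterial muscle cells.

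The total count per library was between 3038782 (control replicate 2) and 18218385 (knockout replicate 3). Control replicate 2 stood apart, with 10.2% of its counts from mitochondrial ribosomal RNA against 0.491% to 0.823% in the other libraries, so results are also given without it where it matters. Ogt was 177.4, 183.2 and 150 CPM (counts relative to the library total, scaled by trimmed mean of M values) in the control libraries and 93.3, 73.5 and 70.9 CPM in the knockout ones, so every library stood on the side its label gives. All 8 smooth muscle markers passed the filter, and Acta2, smooth muscle actin, had a mean of 11576 ± 1574 CPM in control and 11229 ± 1269 CPM in knockout libraries (SD, n = 3). Of the 8, 6 had a lower and 2 a higher estimate in the knockout. At an adjusted p under 0.05 edgeR called 0, against 3.45% of all tested genes. DESeq2 called 1 higher and 1 lower, against 9.3% of all tested genes. The summed CPM of the 8 overlapped between the groups. Without Acta2 the other 7 summed to 13684 to 16326 CPM in controls and 11604 to 13456 CPM in knockouts, without overlap. Tagln, the gene of transgelin, was not among the 8 markers. It averaged 5553 ± 1138 CPM in control and 2526 ± 297 CPM in knockout libraries (SD, n = 3), and the groups were apart. Its log2 fold change was -1.14 ± 0.19 (SE, edgeR adjusted p = 0.0331). RNA came from tissue and not from sorted cells, so fewer cells of a type and less RNA per cell cannot be told apart.

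The genes lie in clusters. Scn3a, Scn2a, Scn1a and Scn7a, with Scn9a between the latter pair, span 1328 kb of chromosome 2. Scn2b and Scn4b are 8.33 kb apart on chromosome 9, and Scn3b lies 4826 kb before Scn2b. Scn8a is on chromosome 15. Scn2a (ENSMUSG00000075318; GRCm38 chromosome 2, 65620771 to 65767447, plus strand) and Scn3a (ENSMUSG00000057182; chromosome 2, 65457118 to 65567627, minus strand) are neighbours 53.1 kb apart that are transcribed away from each other.

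RefSeq windows from 250 bases before to 50 bases after a start site (build GRCm38.p6) were held for 6 of the 8 genes, and 3 of them are shown because the CPM of Scn2a and Scn2b was lower in every knockout than in every control library and that of Scn7a, the most abundant of the 8, overlapped. Scn2a has 2 such start sites 47.9 kb apart, of which the first, at the start of the gene in the table, is shown. Capitals mark matches to the E box CANNTG, on either strand. The windows are chr2:65620519-65620818 on the plus strand for Scn2a, chr9:45117626-45117925 on the plus strand for Scn2b and chr2:66784861-66785160 on the minus strand for Scn7a.
Scn2a: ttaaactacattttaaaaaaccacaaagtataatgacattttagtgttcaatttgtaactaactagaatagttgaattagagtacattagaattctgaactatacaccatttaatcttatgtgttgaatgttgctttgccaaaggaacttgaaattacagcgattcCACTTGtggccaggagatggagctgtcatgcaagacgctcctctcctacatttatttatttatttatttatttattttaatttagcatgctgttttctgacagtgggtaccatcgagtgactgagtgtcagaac
Scn2b: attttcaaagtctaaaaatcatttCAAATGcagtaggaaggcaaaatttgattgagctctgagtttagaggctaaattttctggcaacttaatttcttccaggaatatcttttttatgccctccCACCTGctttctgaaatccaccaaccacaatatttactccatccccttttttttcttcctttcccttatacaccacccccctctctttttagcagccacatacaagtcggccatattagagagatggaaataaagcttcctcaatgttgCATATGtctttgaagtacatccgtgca
Scn7a: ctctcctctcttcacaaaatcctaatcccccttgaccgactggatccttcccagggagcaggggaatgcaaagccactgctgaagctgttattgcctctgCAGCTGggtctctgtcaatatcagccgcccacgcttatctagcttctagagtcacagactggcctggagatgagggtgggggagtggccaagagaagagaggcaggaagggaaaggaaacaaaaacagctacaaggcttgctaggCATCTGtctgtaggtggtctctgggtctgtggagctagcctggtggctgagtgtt
Of the bases in these windows, 33.0% were G or C for Scn2a, 38.3% for Scn2b and 54.0% for Scn7a, against a median of 52.7% over 32817 mouse windows of the same length. At least as high a share was held by 97.8% of all windows for Scn2a and by 92.5% for Scn2b. The Scn4b window, 66.3% G or C, held 26 CpG dinucleotides, against 3 in that of Scn2a, 2 in that of Scn2b and 3 in that of Scn7a. An E box is common and was held by 72.3% of all windows, 1 match in that of Scn2a, 3 in that of Scn2b and 2 in that of Scn7a. The second Scn2a window, chr2:65668436-65668735, differed from the first, with 47.7% G or C, 9 CpG dinucleotides and TATAAA at 84 bases before the start site. None of the printed windows held TATAAA (13.6% of all windows), the cyclic AMP response element TGACGTCA (1.79%) or a CArG box, the element bound by serum response factor (1.63%). The GC box GGGCGG, present in 35.6% of all windows, matched once, on the opposite strand, in the Scn7a window, apart from its E boxes. Both strands were searched in each case. The half-sites TTCAGCACC (0.37% of all windows) and GGACAGCGC (0.4%) of the element bound by REST, the repressor of neuronal genes for which Scn2a is a textbook target, were not in any window of the 6 genes, which says nothing of sequence outside these windows.

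Levels of different genes are compared as FPKM, fragments relative to gene length and library total, as deposited. The 8 subunits covered a wide range, and their order is shown in the plot of level per length. Scn7a was by far the highest of the 8, with 5.03, 7.13 and 7.28 FPKM in the control libraries and 5.96, 6.08 and 6.13 FPKM in the knockout ones. Scn7a encodes Nax, an atypical alpha subunit that is hardly gated by voltage and is known as a sensor of extracellular sodium in glia of the brain. Scn2a was the next subunit in controls, with 1.34 ± 0.312 FPKM, and no control library of Scn2a reached down to the range of Scn2b (0.535 ± 0.0931 FPKM). The ranges of Scn2b, Scn4b (0.381 ± 0.337 FPKM) and Scn3b (0.158 ± 0.0536 FPKM) overlapped from neighbour to neighbour in controls. Scn3a (0.0231 ± 0.0273 FPKM) and Scn8a (0.00829 ± 0.0105 FPKM) followed and also overlapped. In knockouts Scn7a stood clear of Scn2a (0.288 ± 0.147 FPKM), while the ranges of Scn2a, Scn4b, Scn3b, Scn2b and Scn3a overlapped from each to the next (SD, n = 3 for each of these values).

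**Figure D1:**
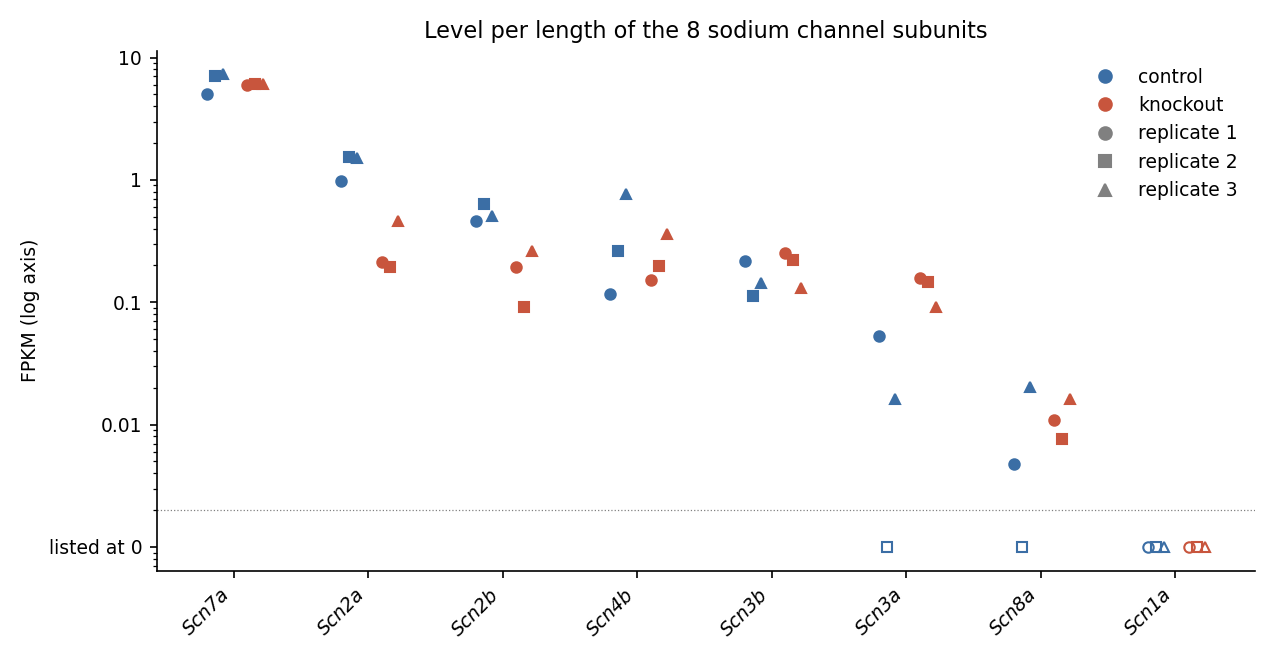
FPKM of the 8 subunit genes on a log axis, 1 point per library, blue for control and red for knockout, with open symbols below the dotted line for libraries in which the gene is listed at 0. Scn7a is the highest of the 8 in every library, and Scn2a lies above the beta genes Scn2b, Scn3b and Scn4b in control libraries and overlaps them in knockout ones.

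The gene length behind these FPKM values was 7338 bases for Scn7a and 4982 for Scn4b, equal to the joined exons of the GENCODE M21 annotation. It was longer than those exons for the other subunits with counts, at 16676 against 12732 bases for Scn2a, 19170 against 12459 for Scn3a, 30728 against 15766 for Scn8a, 8236 against 4656 for Scn2b and 11745 against 5461 for Scn3b. Rescaled to the M21 exons, an alternative chosen after seeing the data, the control order of the 8 was the same, with Scn2b (0.947 ± 0.165 FPKM) clear of Scn4b. In knockouts Scn3b (0.434 ± 0.135 FPKM) then had a higher mean than Scn2a (0.378 ± 0.192 FPKM), with overlapping ranges, and Scn7a led as before (SD, n = 3). The authors' FPKM and CPM divided by the same lengths gave means over the 6 libraries within 1 SD (over all 6 libraries) of each other for all 8 genes.

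Within a library, the share of the summed FPKM of the 10 alpha genes does not depend on how libraries are scaled, although it depends on the gene lengths. Scn2a made up 15.8%, 17.4% and 16.6% of that sum in the control libraries and 3.31%, 2.98% and 6.74% in the knockout ones. Scn7a made up 80.3% to 81.0% in controls and 90.2% to 93.0% in knockouts. Scn3a made up 0% to 0.856% in controls and 1.35% to 2.47% in knockouts. The 3 ranges did not overlap between the groups, also with the M21 lengths, which gave Scn2a 19.6% to 21.6% in controls and 3.80% to 8.54% in knockouts. These shares are parts of the same sum, so a lower share of Scn2a raises that of Scn7a, and they are not separate results. The FPKM of Scn7a itself overlapped between the groups, and the genes were chosen with this contrast known. The sum overlapped too, at 6.21 to 9.07 FPKM in controls and 6.43 to 6.79 FPKM in knockouts.

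**Figure D2:**
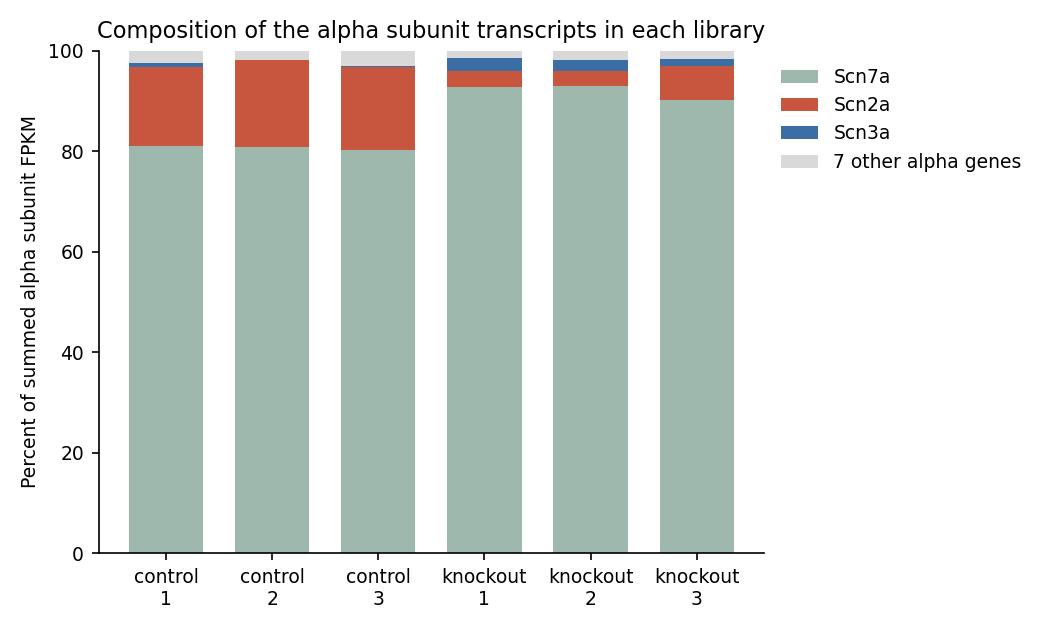
Share of the summed FPKM of the 10 alpha subunit genes (vertical axis, percent) taken by Scn7a, Scn2a, Scn3a and the other 7 in each of the 6 libraries. The Scn2a segment is 15.8% to 17.4% in the control libraries and 2.98% to 6.74% in the knockout libraries.

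Scn2a encodes a pore-forming subunit best known from the axons of central neurons. It had 225, 78 and 324 counts in the control libraries and 42, 56 and 139 in the knockout ones, or 15.5, 28.9 and 23.6 CPM against 3.57, 3.29 and 7.58 CPM. Every knockout library was below every control library, with the highest knockout value in replicate 3 and the lowest control value in replicate 1. The mean was 22.6 ± 6.77 CPM in controls and 4.82 ± 2.40 CPM in knockouts (SD, n = 3), and the log2 fold change was -2.19 ± 0.38 (SE), a level 4.57-fold lower in the knockout. The adjusted p in edgeR's quasi-likelihood test was 0.0344, a value that entered the choice of this gene. Of all 16139 tested genes, 130 (0.806%) had at least as large a change in either direction.

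The size of the Scn2a difference changed little with the settings, and its place relative to the threshold changed often. It lay between -2.69 and -1.97 in 12 alternative fits. The threshold was passed in 6 of them (DESeq2, limma voom, another scaling, both other filters, and without knockout replicate 3). It was missed with the replicate number as a block (edgeR adjusted p = 0.0638) and when control replicate 1, 2 or 3 or knockout replicate 1 or 2 was left out (0.0541 to 0.169), with a range of edgeR, DESeq2 and limma adjusted p-values of 2.36e-06 to 0.169 over all 12. Without control replicate 2, in which Scn2a was highest, the log2 fold change was -1.995 ± 0.41.

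Scn3a, a pore-forming subunit known mainly from the developing nervous system, had values in the opposite order. It had 14, 0 and 4 counts in the control libraries and 36, 48 and 32 in the knockout ones. These were 0.962, 0 and 0.291 CPM against 3.06, 2.82 and 1.74 CPM, and the groups did not overlap. The 0 in control replicate 2 allows a level of up to 1.11 CPM (3 counts, counting error only), which is above the other control libraries and below the knockout ones. The log2 fold change was 2.21 ± 0.62 (SE), an estimate of 4.61-fold from 18 counts in all controls and 116 in all knockouts, with an edgeR adjusted p of 0.0948. Over 12 alternatives it ran from 1.82 ± 0.69 without control replicate 3 to 3.40 ± 0.71 without control replicate 1 (edgeR adjusted p = 0.183 and 0.114). Without control replicate 2 it was 1.99 ± 0.53 (edgeR adjusted p = 0.0792). DESeq2 alone among the 12 put it past the threshold (adjusted p = 0.0263, with 0.299 as the highest value over the alternatives). Scn3a remained a minor transcript in knockouts, at 0.132 ± 0.0354 FPKM (SD, n = 3).

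Scn7a (ENSMUSG00000034810; chromosome 2, 66673425 to 66784914) had 34.8, 59.0 and 50.2 CPM in the control libraries and 44.1, 45.2 and 44.7 CPM in the knockout ones. The knockout libraries lay close together and inside the wider control range. This gave a log2 fold change of -0.09 ± 0.19 (SE), and it was 0.08 ± 0.16 without control replicate 2, in which the gene was highest. Scn7a is also known from Schwann cells and fibroblasts. The summed CPM of 14 Schwann cell markers overlapped between the groups, at 217.6 to 242.2 in controls and 200.5 to 244.2 in knockouts, with Pmp22 leading and Pmp2 at 0 in all libraries. The summed CPM of 9 fibroblast markers was 6598 to 9167 in controls and 6630 to 7282 in knockouts, mostly Col1a1, Col1a2 and Gsn. Scn7a, Col1a1, Col1a2 and, narrowly, Pdgfra (82.2, 110.9 and 110.6 CPM) were lowest among controls in replicate 1 and highest in replicate 2. The other 6 of the 9 markers, Dcn and Gsn among them, were lowest in replicate 2. The part of these cells in the Scn7a values was not tested.

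Scn8a, an alpha subunit of nodes of Ranvier, was near the limit of detection and was not tested. It had 2, 0 and 8 counts in the control libraries and 4, 4 and 9 in the knockout ones, with overlapping groups. Scn1a, the alpha subunit of inhibitory interneurons in the brain, had 0 counts in all 6 libraries. That allows a pooled level of up to 0.0384 CPM, or 1.11 CPM in control replicate 2 and 0.164 to 0.255 CPM in each other library.

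Among the beta genes, Scn2b stood out. It encodes a subunit that is linked to the alpha subunit by a disulfide bond and raises channel density at the membrane. It had 52, 16 and 54 counts in the control libraries and 19, 13 and 39 in the knockout ones, or 3.57, 5.93 and 3.93 CPM against 1.62, 0.765 and 2.13 CPM. All knockout values were below all control values. The log2 fold change was -1.51 ± 0.42 (SE), a 2.85-fold lower estimate, with an edgeR adjusted p of 0.0942. As with Scn3a, DESeq2 alone among 12 alternatives put it past the threshold (adjusted p = 0.0263, with 0.278 as the highest value over the alternatives), and the log2 fold change ran from -1.87 to -1.19. A noncoding gene on the other strand, Gm10684 (chromosome 9, 45107176 to 45135606), covers the whole of Scn2b (45117782 to 45130070). It is listed at 0 in all libraries, as are the opposite-strand genes Gm13595 within Scn3a and Gm47266 within Scn3b, and with no strand setting stated the reads of such pairs cannot be told apart.

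Scn4b, which lies next to Scn2b and encodes another disulfide-linked subunit found in heart, skeletal muscle and some neurons, did not share its order. Its values were 0.550, 1.48 and 3.56 CPM in the control libraries and 0.766, 0.9999 and 1.799 CPM in the knockout ones. The groups overlapped, and the log2 fold change of -0.67 ± 0.68 (SE) rested on control replicate 3, since it was 0.56 ± 0.69 without that library. Of 9 skeletal muscle markers, 3 were also highest in control replicate 3, namely Acta1 (3.13 CPM against 0.371 to 1.11 CPM elsewhere), Actn3 and, narrowly, Casq1. The others were highest in knockout libraries or in control replicate 1. The summed CPM of the 9 was 63.8 to 89.3 in controls and 62.0 to 83.4 in knockouts, but it joins opposite changes. Casq1, most of it in controls, was lower in knockouts (edgeR adjusted p = 0.0184). Ckm averaged 3.19 ± 0.518 CPM in control and 51.0 ± 10.7 CPM in knockout libraries (SD, n = 3, edgeR adjusted p = 0.00152). Without Casq1 the other 8 summed to 5.56 to 14.9 CPM in controls and 48.5 to 70.5 CPM in knockouts. The part of muscle fibres in the Scn4b values was not tested. The skeletal myosins Myh4 and Myh1 were at or near 0, with at most 0.294 CPM in any library.

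Scn3b, whose protein binds the alpha subunit without a disulfide bond, had 2.41, 1.48 and 1.599 CPM in the control libraries and 2.98, 2.65 and 1.53 CPM in the knockout ones. These ranges overlapped, with a log2 fold change of 0.32 ± 0.38 (SE).

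**Figure D3:**
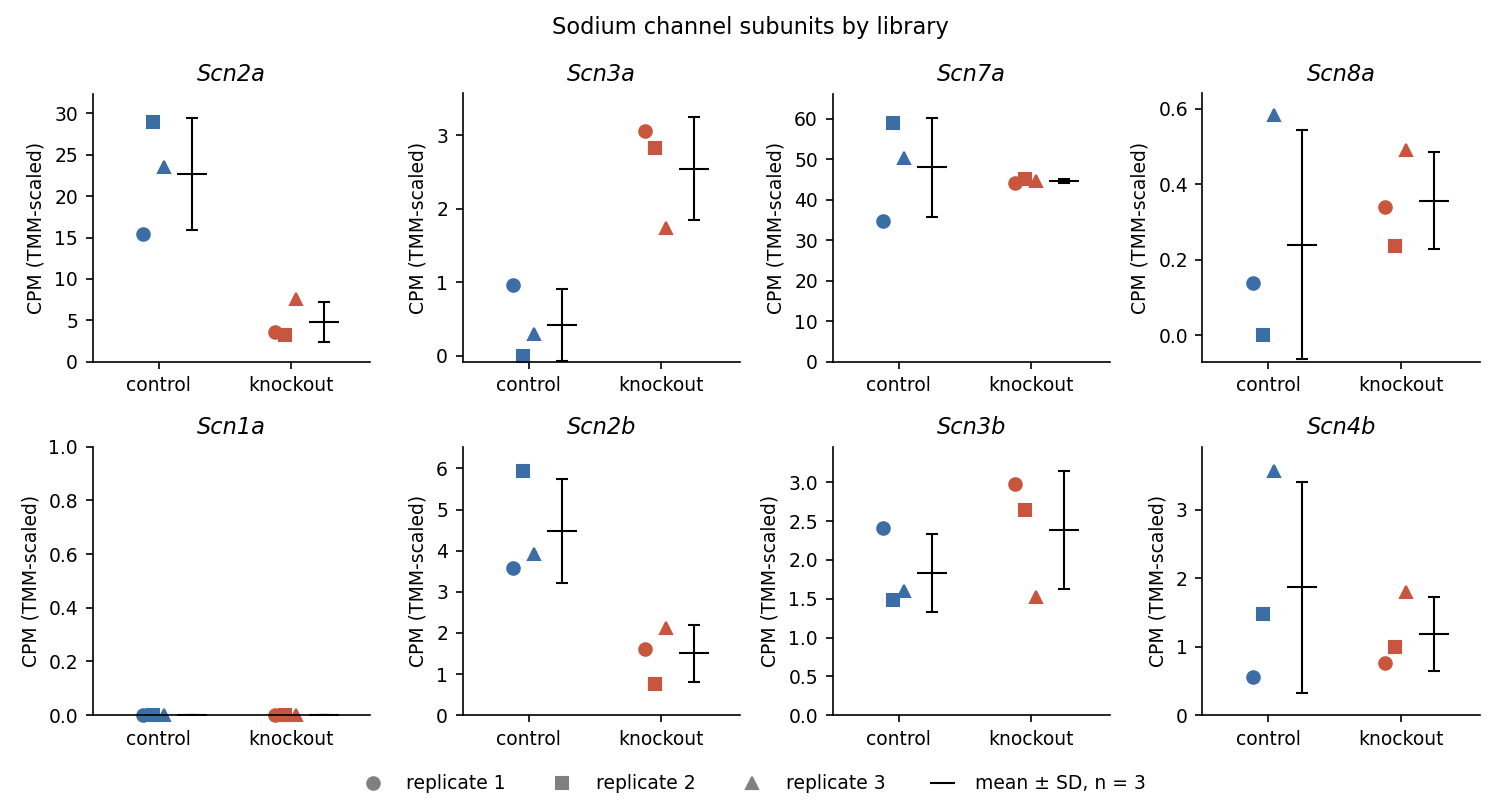
CPM of each of the 8 subunits by library, with the symbol giving the replicate and the bar the mean ± SD of 3 libraries, each panel on its own linear axis. Control and knockout libraries are apart for Scn2a and Scn2b (knockout lower) and for Scn3a (knockout higher), overlap for Scn7a, Scn8a, Scn3b and Scn4b, and are all at 0 for Scn1a.

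Counted together, 1 of the 6 tested subunits was called (Scn2a, lower) and 5 were not, against 3.45% of all tested genes called in either direction (1.9% higher and 1.56% lower). Groups did not overlap for 3 of the 6, against 31.8% of all tested genes. Log2 fold changes were negative for 4 and positive for 2, and their median was -0.38 against -0.01 over all tested genes. Since the list was drawn up with this contrast known, nothing is read from these counts. DESeq2 called 3 of the 6, Scn2a and Scn2b lower and Scn3a higher, against 9.3% of all tested genes (4.7% higher and 4.6% lower). Limma voom called 1, Scn2a, against 4.73% (2.4% higher and 2.33% lower). A change at least as large as that of Scn3a was found in 0.781% of tested genes, and one at least as large as that of Scn2b in 2.42%.

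**Figure D4:**
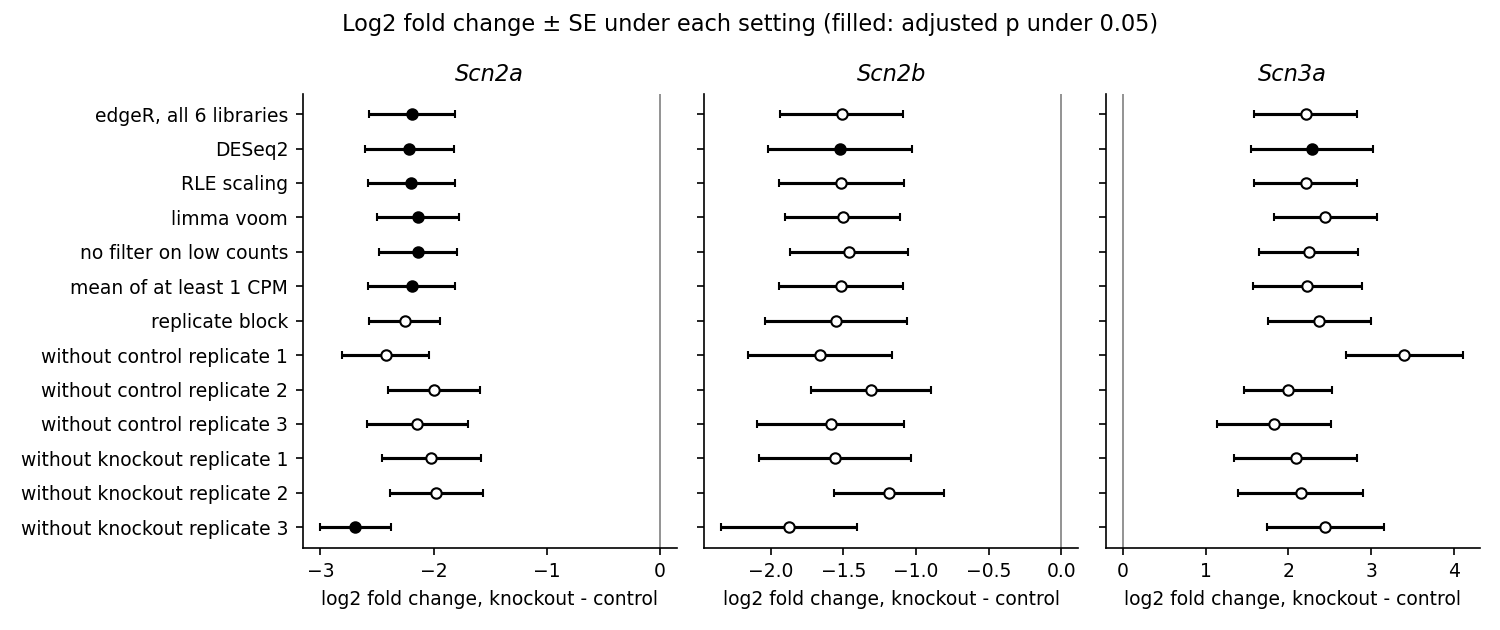
Log2 fold change, knockout minus control, with its SE for Scn2a, Scn2b and Scn3a under the reported fit and 12 alternatives, filled where the adjusted p was under 0.05. The sign is the same throughout for each gene, which the separation of the groups fixes for the fits that leave out a library, while filled points number 7 of 13 for Scn2a and 1 of 13 for Scn2b and for Scn3a.

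Other alpha genes outside the 8 were too low to test. Scn4a, the skeletal muscle alpha gene, had 33 counts over the control and 19 over the knockout libraries. Scn9a and Scn11a, known from sensory neurons, had 0 counts in controls and 5 and 3 in knockouts, each within 1 library, and Scn10a had 0 counts throughout.

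Genes whose products bind, anchor or regulate sodium channels gave 1 call, in the higher direction, among 24 tested (of 27 listed), against 3.45% of all tested genes. The other partners did not pass. Fgf11, a fibroblast growth factor homologous factor of the kind that binds sodium channel tails inside the cell, averaged 19.9 ± 1.91 CPM in control and 12.5 ± 1.18 CPM in knockout libraries (SD, n = 3), with an edgeR adjusted p of 0.0561. Its relative Fgf13 had a log2 fold change of -0.61 ± 0.25, with overlapping groups. The scaffold gene Dlg1 had -0.85 ± 0.22 (edgeR adjusted p = 0.0777). Nfasc, the gene of the node protein neurofascin, had 0.59 ± 0.17 (edgeR adjusted p = 0.104). The ankyrin genes Ank2 and Ank3, which hold channels in the membrane, had -0.36 ± 0.20 and 0.30 ± 0.25. The median of the list was -0.14, with 10 of 24 genes at an unadjusted p under 0.05, against 22.7% of all tested genes.

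None of the 8 genes of the secretases that cut beta subunits was called by edgeR, DESeq2 or limma voom. Of all tested genes these called 3.45%, 9.3% and 4.73%, so few or no calls among 8 genes say little. In edgeR 1 of the 8 had an unadjusted p under 0.05, against 22.7% of all tested genes. The median log2 fold change was -0.03, and that of Bace1 was -0.07 ± 0.34.

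Of 22 tested genes of other routes of sodium entry and extrusion (31 listed), 1 was called, against 3.45% of all tested genes. Nalcn encodes the sodium leak channel, a relative of the alpha subunits that conducts at rest and is not opened by depolarization alone. It fell from 41.4, 60.1 and 39.3 CPM in the control libraries to 21.9, 24.1 and 28.1 CPM in the knockout ones, with the groups apart. For Nalcn the log2 fold change was -0.91 ± 0.19 (SE), and the edgeR adjusted p of 0.0492 lay close to the threshold, which 4 of 12 alternatives passed (adjusted p 0.0022 to 0.218). It was missed with another scaling (0.0514), with the stricter filter (0.0535), with the replicate block (0.111), and without control replicate 1 or 3 (0.123 and 0.0588) or knockout replicate 1, 2 or 3 (0.218, 0.201 and 0.0927). Unc79 and Unc80, whose products form a complex with this channel, were too low to test.

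The sodium pump and exchanger genes did not pass. Fxyd1, which encodes the pump regulator phospholemman, averaged 132.5 ± 21.2 CPM in control and 192.5 ± 13.8 CPM in knockout libraries (edgeR adjusted p = 0.0907). The sodium-calcium exchanger gene Slc8a2 had 44.4 ± 5.36 and 27.8 ± 7.11 CPM (edgeR adjusted p = 0.0998), and Slc8a1 had overlapping groups. The list's median was 0.05, with 8 of 22 genes at an unadjusted p under 0.05, against 22.7% of all tested genes.

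Rest itself averaged 34.4 ± 6.65 CPM in control and 35.2 ± 0.620 CPM in knockout libraries, a log2 fold change of 0.05 ± 0.15. Of the 13 genes of REST and its corepressors, all tested, 1 was called, against 3.45% of all tested genes. Rcor2, which encodes a member of the CoREST corepressor family, fell from 13.6, 5.93 and 9.67 CPM in the control libraries to 2.81, 3.88 and 2.73 CPM in the knockout ones. The groups were apart, but the control libraries varied widely among themselves. The log2 fold change was -1.68 ± 0.32 (edgeR adjusted p = 0.0404), and 6 of 12 alternatives passed (adjusted p 0.000268 to 0.191). The replicate block gave an edgeR adjusted p of 0.115, the fits that left out control replicate 1 or 3 gave 0.133 and 0.0688, and those that left out knockout replicate 1, 2 or 3 gave 0.191, 0.144 and 0.108.

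Among 19 neuronal or other genes with described REST sites, 7 were tested and edgeR, DESeq2 and limma voom called 0. Of all tested genes these called 3.45%, 9.3% and 4.73%, so 0 among 7 genes says little. The synaptic vesicle gene Syn1 was the 1 with an unadjusted p under 0.05 in edgeR, against 22.7% of all tested genes. It averaged 2.11 ± 0.354 CPM in control and 0.876 ± 0.289 CPM in knockout libraries (edgeR adjusted p = 0.114). Stmn2, a growth cone gene, had a log2 fold change of 0.34 ± 0.21. The median of the 7 was 0.10.

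**Figure D5:**
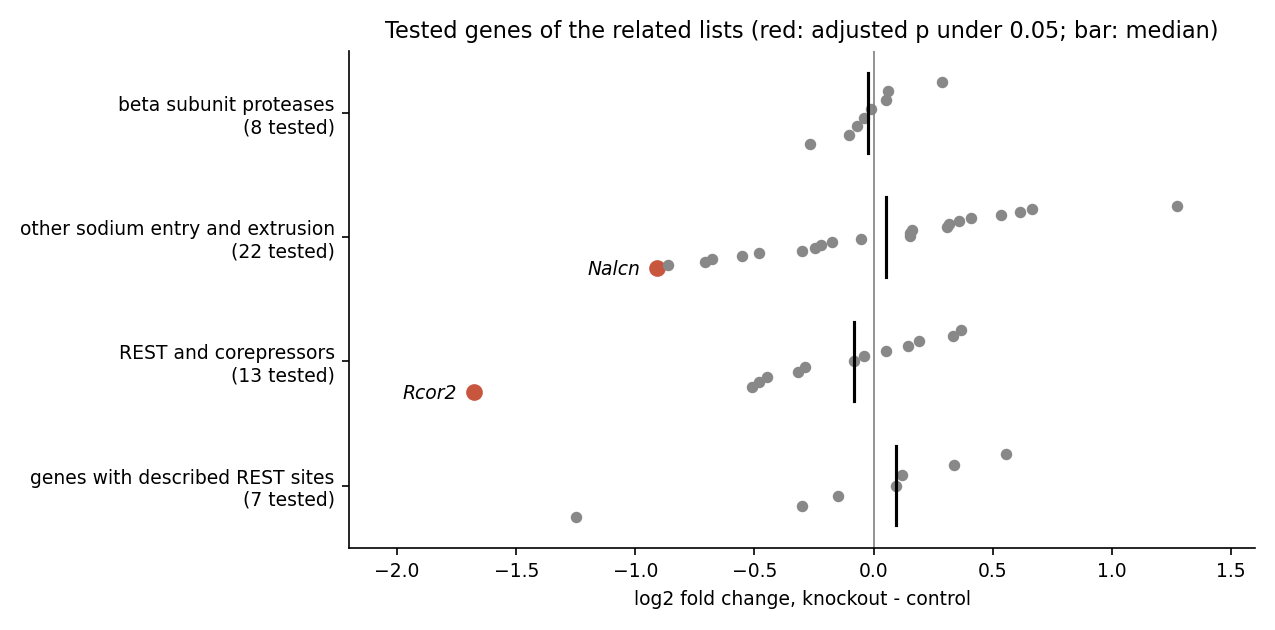
Log2 fold change, knockout minus control, of every tested gene in 4 related lists, 1 point per gene, with the median of the list as a bar and genes past an adjusted p of 0.05 in red. The red points are Nalcn at -0.91 and Rcor2 at -1.68, and the grey points of each list lie on both sides of 0.

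Markers of neurons were set beside the subunits, since these genes are best known from neurons. The summed CPM of 15 neuronal markers was 46.7 to 73.2 in controls and 106.9 to 135.4 in knockouts. Scn3a had the same direction, and Scn2a and Scn2b had the opposite one. Most of the sum was Uchl1, a ubiquitin hydrolase gene that rose from 45.1 ± 11.02 to 99.7 ± 13.8 CPM (edgeR adjusted p = 0.0331). Without Uchl1 the other 14 summed to 10.8 to 15.8 CPM in controls and 15.8 to 21.1 CPM in knockouts, ranges that meet at their ends. Of the 15, 5 passed the filter on low counts. Apart from Uchl1 these were Stmn2, at 7.79 to 14.2 CPM in the 6 libraries, and Tubb3, Gap43 and Prph, each under 4 CPM. The other 10 had 0 counts in at least 1 library each and at most 0.872 CPM in any: Snap25 had 0 counts in every control library and at most 0.34 CPM in a knockout one, and Dbh and Elavl4 had 0 counts in all controls. The part of nerve fibres in the subunit values was not tested.

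Tested genes around the subunits on the same chromosomes were called at a share near that of all tested genes. Within 500 kb of any of the 8 subunits lay 46 tested genes outside the family, of which 0 were higher and 2 were lower, Slc11a2 and Nr4a1, both near Scn8a, against 3.45% of all tested genes called, with a median log2 fold change of -0.01. Near the chromosome 2 subunits there were 4, and edgeR called 0 of them, DESeq2 1 and limma voom 0. Of these 4, 2 had an unadjusted p under 0.05, against 22.7% of all tested genes. Slc38a11, an amino acid transporter gene 93.1 kb from Scn3a and the nearest tested gene on that side, averaged 16.0 ± 3.87 CPM in control and 27.1 ± 3.21 CPM in knockout libraries (edgeR adjusted p = 0.085). Ttc21b, the nearest tested gene after Scn2a, had 15.2 ± 2.28 and 9.65 ± 1.38 CPM (edgeR adjusted p = 0.103). The nearest tested genes around Scn2b and Scn4b, Mpzl3 and Il10ra, had log2 fold changes of -0.90 ± 0.36 and -0.44 ± 0.25, and neither was called.

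The genes whose pattern over the 6 libraries was most like that of Scn2a, by the root mean square difference of centred log2 CPM among 15387 genes, were 3425401B19Rik (0.32), Casq1 (0.37) and Zfp93 (0.42). Casq1 encodes a calcium-buffering protein of the sarcoplasmic reticulum best known from skeletal muscle, and it had 74.3, 58.2 and 74.4 CPM in the control libraries and 12.8, 13.5 and 24.0 CPM in the knockout ones. As with Scn2a, the highest knockout value was in replicate 3. The genes most like Scn3a were 4930513N10Rik (0.16), Gm35019 (0.17) and Pramef12 (0.20), which were also sparse in controls, with means of 0.395, 0.892 and 0.233 CPM against 0.418 CPM for Scn3a. With this many genes and 6 libraries, close matches are common, and they are given as a description.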

How the data were processed

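The data are RNA-seq of mouse aorta in 6 libraries, grouped and numbered by their titles, 3 per group. The submitters' processing notes name CASAVA 1.8, HISAT2, SAMtools 1.3.1, edgeR and the build GRCm39, while 99.4% of 55141 shared gene identifiers have the positions of GENCODE M21 on GRCm38, so positions are given as GRCm38. Which program, annotation and strand setting were used for counting is not given in the sources used here. The authors deposited raw read counts per gene and FPKM values, per the file headers. The deposited FPKM could be rebuilt from the counts, the library totals and a single length for each gene to within a relative 1.4e-05 over 7705 genes, and served only to compare levels between genes.

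Counts were filtered with filterByExpr, scaled by TMM and compared in R 4.3.3 with edgeR 4.0.16 (glmQLFit, robust, and glmQLFTest, two-sided), with Benjamini-Hochberg adjustment over 16139 genes and called at 0.05. A positive log2 fold change means higher in the knockout, and its SE is its size over the square root of F. Alternatives were DESeq2 1.42.0, limma 3.58.1 (voom), RLE scaling, no filter beyond 1 count, a mean of at least 1 CPM, the replicate block and each library left out. The steps were checked on simulated counts. Patterns were compared as log2(CPM + 0.5). Named genes were the sodium channel genes, the called genes and up to 3 others of each list by p, and near and like genes. Fgf13, Ank2, Ank3, Bace1, Slc8a1, Unc79, Unc80, Myh1, Myh4, Acta1, Actn3 and Tagln were chosen after their values were seen or for their role. So were Dcn, Gsn, Col1a1, Col1a2, Tubb3, Gap43, Prph, Stmn2, Snap25, Dbh and Elavl4. The subunits and the 14 lists were chosen with earlier results of these data known. Some genes that this rule names are not reported here.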

Additional observations from a re-analysis of the deposited data

How the results depend on the processing

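Calls rested on few libraries. Over all genes, 557 calls became 1501 with DESeq2, 28 with the replicate number as a block and 7 to 911 when 1 library was left out. Of the 8 sodium channel subunits, the 1 call became 3 with DESeq2, 0 with the block and 0 to 1 with a library left out. For the channel partners 1 became 4 with DESeq2, 2 with limma voom, 0 with the block and 0 to 2 with a library left out. For other sodium entry and extrusion 1 became 3 with DESeq2, 0 with RLE scaling, 0 with a mean of at least 1 CPM, 0 with the block and 0 to 1 with a library left out. For REST and its corepressors 1 became 2 with DESeq2, 0 with the block and 0 to 1 with a library left out. The cause of these shifts was not tested. Among the tested subunits and a few other chosen genes whose fold changes were followed, signs turned for 3, none of them called. Signs of the remaining genes of the series were not followed. With 1 library left out, Scn7a ranged from -0.29 to 0.075 (positive without control replicate 2), Scn4b from -1.20 to 0.56 (positive without control replicate 3) and Rest from -0.079 (without control replicate 1) to 0.20. Mean levels per length over the 6 libraries moved by over 1 SD when rescaled to the M21 exons for Scn8a (to 0.0193 FPKM), Scn2b (0.635 FPKM) and Scn3b (0.387 FPKM). They moved by less for the other 5 subunits and under the other alternatives run. This SD is over all 6 libraries and so includes the difference between the groups. Within a group, Scn2a also moved by over 1 SD in controls (1.34 ± 0.312 to 1.76 FPKM), as did Scn3a in knockouts (0.132 ± 0.0354 to 0.203 FPKM).

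Libraries with the same replicate number did not deviate together, with correlations of 0.05, 0.09 and -0.06, and control replicate 3 correlated best with knockout replicate 1, so the block was kept as an alternative only. Depth limits Scn8a, Scn1a and Scn3a, whose control counts sum to 10, 0 and 18. A count of 0 in control replicate 2 allows a level of up to 1.11 CPM.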
